A study of Mus musculus with 5 samples.

Results

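Genes of DNA replication and cell division were examined in whole lung of untreated mice lacking PDE4B or PDE4D. The group is a list of 41 genes, and its members were all the probe sets whose only annotated gene symbol is on that list. A total of 40 of the 41 genes had such a probe set, out of 18194 genes on the array, and they were read by 97 of the 45101 probe sets. Ccnb1 (cyclin B1) had none, so its expression was not analysed here and only its promoter enters below. Where a gene had several, the one brightest on average stood for it. Of the 40 genes, 23 had a mean log2 intensity of at least 6, which is an intensity of 64, against 11105 of all genes. These 23 comprised 9 genes of DNA replication and 14 of cell division, and the other 17 stayed below that floor. The members nearest to the floor were Ccnb2, with a geometric mean intensity of 63.3 just below it, and Birc5, with 67.9 just above it.

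The arrays came from a search for genes that bear on a compound tested against elastase-induced emphysema in mice, but all mice here were naive and received no elastase. There were 5 groups of female mice. C57 was the C57BL/6J strain. The groups 4B(+/+) and 4B(-/-) were wild type and homozygous knockout for PDE4B, and 4D(+/+) and 4D(-/-) were the same for PDE4D, and these 4 groups shared an origin on C57BL/6 × 129/Ola and at least 11 generations of backcrossing to C57BL/6J. For each group, 5 lungs were frozen and powdered, RNA of 3 of them was mixed after a quality check, and 0.3 μg of total RNA was labelled for 1 Affymetrix array. Age and the design of the deleted alleles were not given in the sources used here. Each group is therefore 1 pool on 1 array with no replicate error, and where 2 arrays are set against each other no test was possible, so "higher" and "lower" describe those arrays.

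The PDE4 enzymes hydrolyse cyclic AMP, a second messenger that slows division in many cell types and drives it in some. A dividing cell first copies its DNA, using the MCM helicase to open the double helix, the PCNA clamp to hold the polymerases and ribonucleotide reductase to supply nucleotides. It then enters mitosis under cyclins and CDK1, builds a spindle, attaches its chromosomes through the centromere and ends mitosis when the anaphase-promoting complex marks cyclins for destruction. Messages of the mitotic genes peak late in the cycle and those of the replication genes earlier, and in adult lung only few cells divide at any time. Many mitotic promoters hold CCAAT boxes, bound by NF-Y, and a CHR element, through which the DREAM and MuvB complexes act, whereas many replication promoters hold E2F sites.

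The promoters of 6 members are shown so that both kinds can be seen. The members over the floor were ranked by the smaller of the 2 knockout differences from the highest wild-type array. By that measure Ube2c, Birc5, Nusap1 and Top2a stood highest, and Mcm6 and Mcm3 lowest. In 4D(-/-) alone the order was another, with Mki67 the highest. Each line gives the 250 bases before the annotated start, 5′ to 3′ on the gene's strand, from the RefSeq promoter table of the GRCm38.p6 build. Capitals mark matches on either strand to the CHR letters TTTGAA (or the variant TTCGAA), to the CCAAT box, or to the E2F letters, which are TTTGGCGC, TTTGCCGC, TTTCGCGC and TTTCCCGC.
Ube2c, chr2:164769679-164769928, plus strand: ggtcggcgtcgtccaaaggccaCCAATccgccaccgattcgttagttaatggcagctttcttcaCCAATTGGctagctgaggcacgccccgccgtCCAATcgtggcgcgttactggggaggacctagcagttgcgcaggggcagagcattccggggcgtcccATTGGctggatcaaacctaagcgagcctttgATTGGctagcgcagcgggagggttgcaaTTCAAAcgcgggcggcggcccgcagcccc
Birc5, chr11:117848987-117849236, plus strand: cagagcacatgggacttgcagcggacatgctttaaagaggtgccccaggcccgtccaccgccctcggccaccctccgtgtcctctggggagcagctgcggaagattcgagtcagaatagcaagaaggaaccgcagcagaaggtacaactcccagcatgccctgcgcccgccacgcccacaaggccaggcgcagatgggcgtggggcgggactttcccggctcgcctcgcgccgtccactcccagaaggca
Nusap1, chr2:119618048-119618297, plus strand: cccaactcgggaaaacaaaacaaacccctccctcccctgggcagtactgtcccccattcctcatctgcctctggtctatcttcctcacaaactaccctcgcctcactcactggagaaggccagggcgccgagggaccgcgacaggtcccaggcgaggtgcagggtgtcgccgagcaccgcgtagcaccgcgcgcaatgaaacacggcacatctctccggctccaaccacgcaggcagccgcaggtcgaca
Top2a, chr11:99024190-99024439, minus strand: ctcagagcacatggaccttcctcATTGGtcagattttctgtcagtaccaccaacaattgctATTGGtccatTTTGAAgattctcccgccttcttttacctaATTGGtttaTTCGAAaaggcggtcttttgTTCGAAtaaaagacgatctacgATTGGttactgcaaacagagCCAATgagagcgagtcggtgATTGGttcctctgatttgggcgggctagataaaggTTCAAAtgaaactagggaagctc
Mcm6, chr1:128359706-128359955, minus strand: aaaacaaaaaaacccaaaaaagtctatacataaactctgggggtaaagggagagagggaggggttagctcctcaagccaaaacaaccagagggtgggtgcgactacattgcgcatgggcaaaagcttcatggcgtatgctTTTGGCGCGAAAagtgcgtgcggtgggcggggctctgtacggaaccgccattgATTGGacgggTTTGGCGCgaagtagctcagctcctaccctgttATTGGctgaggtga
Mcm3, chr1:20820313-20820562, minus strand: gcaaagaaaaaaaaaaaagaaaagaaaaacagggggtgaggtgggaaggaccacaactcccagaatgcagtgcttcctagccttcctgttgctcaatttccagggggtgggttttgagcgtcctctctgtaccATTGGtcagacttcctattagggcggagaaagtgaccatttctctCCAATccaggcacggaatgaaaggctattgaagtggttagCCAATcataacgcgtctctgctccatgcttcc
The Ube2c window held 6 CCAAT matches, 2 of which overlap on opposite strands, and 1 CHR match whose first base lies 29 bases before the start. Top2a held 6 CCAAT and 4 CHR matches. Mcm6 held 2 CCAAT matches and 3 E2F matches, of which 2 overlap. Mcm3 held 3 CCAAT matches there and 2 E2F matches in the 50 bases after its start, which are not printed. Birc5 and Nusap1 had none of these letters in the window shown.

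Over the full windows of 300 bases, 250 before and 50 after the start, 36 of the 41 members matched the table by symbol. CHR letters were found in 20 of the 26 matched division members and in 2 of the 10 replication members, Mcm2 and Mcm7, and in 21.7% of the 27025 genes of the table. CCAAT was found in 22 of 26 and 8 of 10, against 41.1% of all genes. The E2F letters were found in Mcm3, Mcm5, Mcm6, Mcm7 and Uhrf1, which are 5 of the 10 replication members, in 1 of the 26 division members (Cdk1), and in 2.6% of all genes. The cyclic AMP response element TGACGTCA was in Mcm5 and Cenpe, 2 of 36 members, against 2.03% of all genes. These are matches of letters, not shown binding sites.

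Most division members read higher in each knockout than in the wild types, many by less than 1.5-fold, while the replication members had median differences of 0.00 and 0.12 log2 units in the 4B and 4D lines. In 4B(-/-), 3 of the 23 members over the floor were at least 1.5-fold above 4B(+/+) (Ube2c, Birc5 and Cenpa), where 0.279% of all genes over the floor were that much higher. None was that much lower, against 0.747% of all genes. In 4D(-/-), 7 of the 23 were at least 1.5-fold above 4D(+/+) (Mki67, Prc1, Ube2c, Nusap1, Top2a, Ccna2 and Cdc20), against 1.01% of all genes, and none was that much lower, against 4.07%. All of these are division members. The floor was set on the mean of all 5 arrays, knockouts included. Birc5 was under 64 in every wild type, and the wild types of Ube2c alone average just under 64. Both genes passed the floor through their knockout values, so the floor favoured counting them as higher, here and below. These comparisons share no array, and they had 1 gene in common, Ube2c, which is 33.3% of the 3 and 14.3% of the 7. Of all genes over the floor, 31 in the 4B line and 112 in the 4D line were at least 1.5-fold higher. How many of these were in common was not counted, so the 1 shared member has no background beside it. RNA of whole lung cannot tell more dividing cells from more of these messages in each dividing cell.

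**Figure D1:**
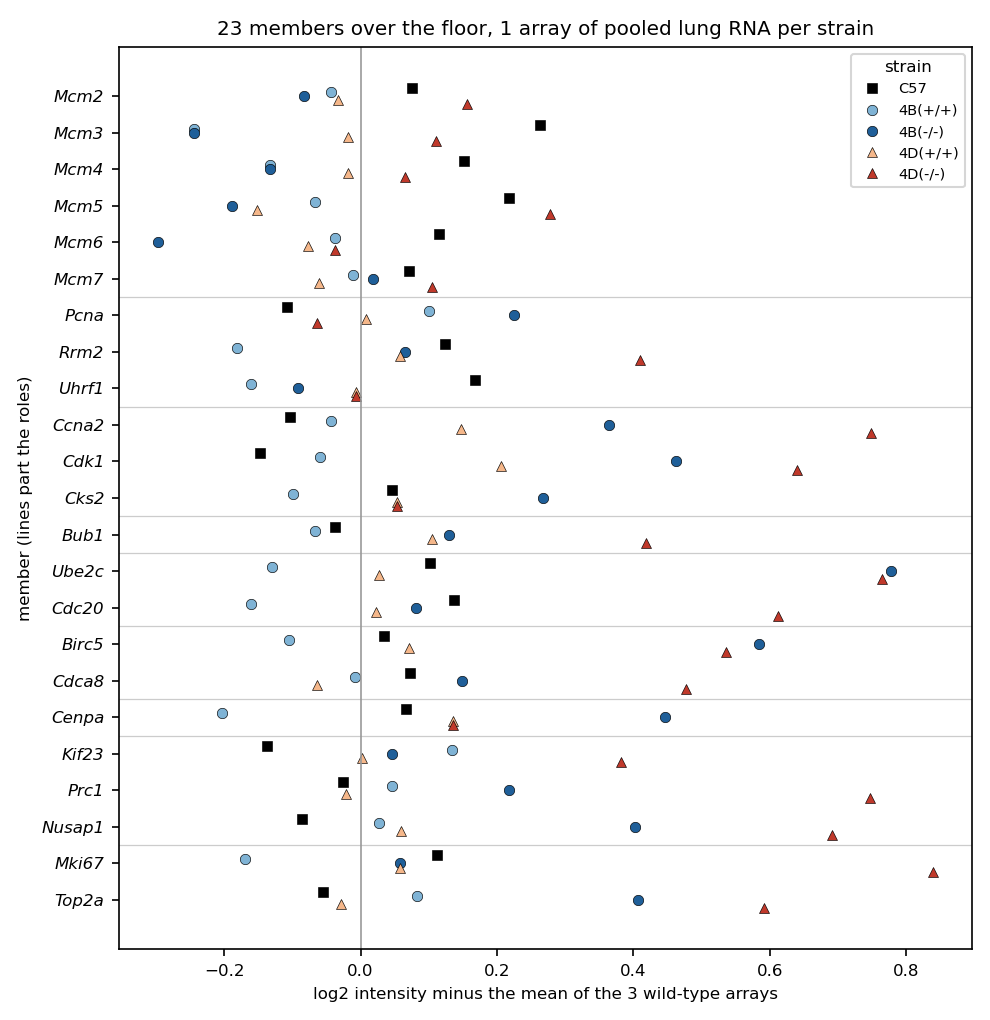
Log2 intensity of each of the 23 members over the floor, as the difference from the mean of the 3 wild-type arrays (horizontal axis), with 1 point per array, offset a little in height for legibility; grey lines part the roles. The 4D(-/-) points (dark triangles) lie to the right for most division members below Uhrf1, the 4B(-/-) points (dark circles) for most of them too. For Mcm2, Mcm5 and Mcm6 the 4B(-/-) point is the leftmost, and for Mcm4 it shares that place with 4B(+/+).

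Ube2c encodes the ubiquitin-conjugating enzyme of the anaphase-promoting complex (probe set 1452954_at). Its intensity was 67.6 in C57, 57.6 in 4B(+/+), 108 in 4B(-/-), 64.2 in 4D(+/+) and 107 in 4D(-/-). Both knockouts lay above all 3 wild types, which spanned 57.6 to 67.6. The folds over the matching wild type were 1.87 in the 4B line and 1.67 in the 4D line, and over the highest wild type, C57, the smaller of both was 1.59. Cdc20, the activator of the same complex, read 236, 192, 227, 218 and 328 in the same order of arrays (1439377_x_at). Only 4D(-/-) lay above the wild-type range, at 1.51-fold over 4D(+/+). Another Cdc20 probe set over the floor, 1416664_at, read 121, 124, 151, 130 and 152, and there both knockouts were above the wild types, at 1.18-fold for 4D(-/-) over 4D(+/+).

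Birc5 (survivin) and Cdca8 (borealin) belong to the chromosomal passenger complex, which corrects chromosome attachments through Aurora B. Birc5 (1424278_a_at) read 59.5 in C57, 54.0 in 4B(+/+), 87.1 in 4B(-/-), 61.0 in 4D(+/+) and 84.2 in 4D(-/-). It was above all wild types in both knockouts, 1.61-fold over 4B(+/+) and 1.38-fold over 4D(+/+). Cdca8 (1436847_s_at) read 111, 105, 117, 101 and 147, again with both knockouts highest, but 4B(-/-) was close to C57, and 4D(-/-) was 1.46-fold over 4D(+/+). Cenpa, the histone H3 variant that marks the centromere, read 103, 85.4, 134, 108 and 108 (1450842_a_at). The 2 arrays of the 4D line had the same value, and 4B(-/-) stood alone above the rest at 1.57-fold over 4B(+/+), which was the lowest array.

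Among the genes of mitotic entry, Ccna2 (cyclin A2, which drives S phase and entry into mitosis) read 75.9 in C57, 79.1 in 4B(+/+), 105 in 4B(-/-), 90.3 in 4D(+/+) and 137 in 4D(-/-) on 1417910_at. Both knockouts exceeded the wild types, 4D(-/-) by 1.52-fold over 4D(+/+). On its other probe set, 1417911_at, it read 80.5, 86.7, 117, 73.4 and 109, again with both knockouts above the wild types, but with 4B(-/-) the highest. Cdk1, the kinase that starts mitosis, read 75.4, 80.1, 115, 96.3 and 130, with both knockouts above the wild types. Cks2, a small partner of the CDKs, was highest in 4B(-/-) at 450 and equal in 4D(+/+) and 4D(-/-) at 388. The checkpoint kinase Bub1 read 97.2 in 4D(-/-) and 79.5 in 4B(-/-), the latter close to the 78.2 of 4D(+/+).

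The midzone and spindle genes stood higher mainly in 4D(-/-). Prc1, which bundles midzone microtubules, read 65.0, 68.3, 76.9, 65.2 and 111 in C57, 4B(+/+), 4B(-/-), 4D(+/+) and 4D(-/-) (1423775_s_at). The wild types lay within 65.0 to 68.3, and 4D(-/-) was 1.70-fold over 4D(+/+). Nusap1, a spindle protein that binds chromatin, read 70.6, 76.4, 99.1, 78.1 and 121 (1416309_at), with both knockouts above the wild types and 4D(-/-) at 1.55-fold over 4D(+/+). Kif23, the kinesin of the centralspindlin complex, read 88.8 in 4D(-/-) against 62.0 to 74.8 in the wild types, and 70.4 in 4B(-/-), which is inside that range.

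Mki67, which coats mitotic chromosomes and is the usual marker of cycling cells (the Ki-67 antigen), read 192 in C57, 158 in 4B(+/+), 185 in 4B(-/-), 185 in 4D(+/+) and 318 in 4D(-/-) (1426817_at). Only 4D(-/-) left the wild-type range, at 1.72-fold over 4D(+/+). In 4B(-/-) Mki67 was below C57. Top2a, the topoisomerase that untangles sister chromatids, read 159, 175, 219, 162 and 249 (1454694_a_at). Both knockouts were above the wild types, with 1.54-fold in the 4D line and 0.32 log2 units in the 4B line.

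Measured against all 3 wild-type arrays at once, most division members were above in each knockout, and the replication members gave other counts; the difference between the 2 groups was not tested. In 4B(-/-), 11 of the 14 division members were above every wild type and 0 below, the exceptions being Cdc20, Kif23 and Mki67. For 4D(-/-), 12 of 14 were above and 0 below, the exceptions being Cks2 and Cenpa. Of the 9 replication members, 1 was above and 4 below in 4B(-/-), and 4 were above and 0 below in 4D(-/-). Over all 23 members, 12 were above the wild types in 4B(-/-), against 31.3% of all genes, and 16 in 4D(-/-), against 20.8% of all genes. Below the wild types were 4 of 23 in 4B(-/-), a share under the 20.8% of all genes, and 0 in 4D(-/-), against 31.8%. Both counts use the same 3 wild-type arrays.

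Among the replication members, all 6 MCM genes, which encode the subunits of the replicative helicase, read lower in 4B(+/+) and in 4D(+/+) than in C57 on the probe sets used. Of all 11105 genes over the floor, 5181 and 5681 did. Not every other MCM probe set over the floor did. Mcm7 on 1416030_a_at read 158 and 152 against 152 in C57, and Mcm3 on 1426652_at read 108 in both 4D(+/+) and C57. The 4 members below all wild types in 4B(-/-) were all MCM genes: Mcm2, Mcm4, Mcm5 and Mcm6. For Mcm4 this rests on a difference of only -0.003 log2 units from 4B(+/+). Mcm6 read 338 in C57, 304 in 4B(+/+), 254 in 4B(-/-), 296 in 4D(+/+) and 304 in 4D(-/-), so that 4B(-/-) stood apart at the low end. Mcm3 read 209, 147, 147, 172 and 188, highest in C57. Mcm4 read 453, 372, 372, 403 and 427 on 1416214_at and differed by at most 0.08 log2 units in either knockout comparison, among the smallest differences of any member. On the probe sets used, Mcm2, Mcm5 and Mcm7 were above all wild types in 4D(-/-), with Mcm5 at 268 against 257 in C57 (1436808_x_at). Other probe sets over the floor differed. Mcm2 read 111 in 4D(-/-) on 1448777_at, below the 125 of C57. Mcm7 read 139 in 4D(-/-) on 1416030_a_at, its lowest array, and 152 on 1416031_s_at, equal to C57. On 1439269_x_at Mcm7 read 211 in 4D(-/-), above all wild types.

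Pcna, the sliding clamp, had another order of arrays than the MCM genes. It read 1704 in C57, 1970 in 4B(+/+), 2146 in 4B(-/-), 1847 in 4D(+/+) and 1757 in 4D(-/-) (1417947_at), lowest in C57 and highest in 4B(-/-), with differences of 0.12 and -0.07 log2 units in the 4B and 4D lines. Rrm2, the small subunit of ribonucleotide reductase, read 205, 166, 197, 196 and 250 (1434437_x_at), with only 4D(-/-) above the wild types. Its other probe set over the floor, 1448226_at, read 91.6, 68.0, 99.2, 84.8 and 96.8, with both knockouts above the wild types and 4B(-/-) the highest. Uhrf1, which maintains DNA methylation behind the fork, read 81.4, 64.8, 68.0, 72.1 and 72.1 (1415810_at), and the 4D arrays had the same value.

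As medians of log2 differences, the 14 division members were 0.35 higher in 4B(-/-) than in 4B(+/+) and 0.57 higher in 4D(-/-) than in 4D(+/+). The 9 replication members had medians of 0.00 and 0.12, and all genes over the floor had 0.01 and 0.00. Over all 23 members the medians were 0.20 and 0.38, with 18 and 19 members above 0, against 52.4% and 46.0% of all genes. The choice of reference mattered in the 4B line: 4B(+/+) was itself the lowest of the 5 arrays in 10 of the 23 members, against 10.2% of all genes. With the mean of the other 2 wild types as the reference, the 4B median was 0.11 and 1 member, in place of 3, was at least 1.5-fold higher.

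**Figure D2:**
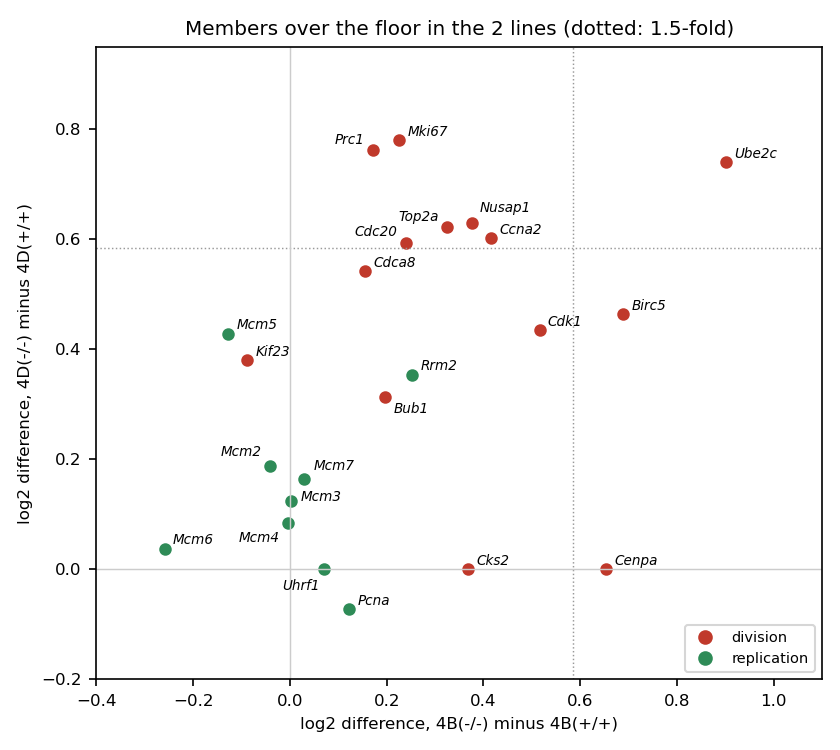
Log2 difference of knockout minus matching wild type for the 23 members over the floor, 4B line on the horizontal axis and 4D line on the vertical axis, 1 point per gene; dotted lines mark 1.5-fold. Division members lie to the upper right with Ube2c past both lines, Cks2 and Cenpa lie at 0 in the 4D line, and replication members lie near the origin, with Mcm5 and Rrm2 higher in the 4D line.

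4D(-/-) was most often alone highest among the division members, in 10 of 14. Among the 9 replication members it shared that place with C57, at 4 each. 4D(-/-) alone was highest in 14 of the 23 members, against 18% of all genes, and was lowest in none, against 30.2%. 4B(-/-) alone was highest in 5 (Pcna, Cks2, Ube2c, Birc5 and Cenpa), against 28.5%, and lowest in 4, against 18.8%. C57 was highest in 4 replication members (Mcm3, Mcm4, Mcm6 and Uhrf1), against 26.3%, and lowest in 7 members, against 18.4%. 4D(+/+) alone was lowest in 2, Mcm7 and Cdca8, against 20.4%. Neither 4B(+/+) nor 4D(+/+) was alone highest for any member, against 10.7% and 14.5% of all genes.

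No member differed by 1.5-fold between wild types, a count that so few genes would give at the share of all genes too. In 4B(+/+) against C57, 0 of 23 members were 1.5-fold higher or lower, where 1.96% of all genes were higher and 1.24% lower, and the median was -0.14. In 4D(+/+) against C57 there were again 0, against 3.72% and 1.18% of all genes, with a median of -0.06. Of the 9 replication members, 8 read lower than C57 in 4B(+/+) and 8 in 4D(+/+), with medians of -0.28 and -0.17, the exception being Pcna in both comparisons, which share the C57 array. Of all 11105 genes over the floor, 5181 read lower than C57 in 4B(+/+) and 5681 in 4D(+/+). The 2 wild-type lines differed from each other by a median of 0.15, with 0 members past 1.5-fold, against 1.21% higher and 0.261% lower in 4D(+/+). Of the 23 members, the one with the widest difference between any of these wild types was Mcm3, at -0.51 log2 units in 4B(+/+) against C57.

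Against C57, 2 members were at least 1.5-fold higher in 4B(-/-), Ube2c and Cdk1, where 2.27% of all genes were higher, and 0 were lower, against 3.41%. The median was 0.17 over the 23 members, but 0.31 over the division members and -0.35 over the 6 MCM genes. In 4D(-/-) against C57, 7 members were higher (Ccna2, Cdk1, Nusap1, Prc1, Mki67, Ube2c and Top2a), against 1.27% of all genes, and 0 lower, against 0.711%, with a median of 0.40. Ccna2 was the furthest, at 1.81-fold. These comparisons share the C57 array with each other and with those of the wild types. Of the knockouts set against each other, 4D(-/-) exceeded 4B(-/-) by at least 1.5-fold in 1 member, Mki67 at 1.72-fold, against 2.6% of all genes, and 0 were lower, against 2.87%. The median of that difference was 0.26. On the probe sets used, all 6 MCM genes were higher in 4D(-/-), where 39.9% of all genes were, and Cenpa was furthest the other way at -0.32 log2 units. Some other probe sets over the floor were not higher in 4D(-/-): Mcm3 on 1426652_at was at -0.05, and Mcm7 was at -0.36 on 1416030_a_at and at 0 on 1416031_s_at. The _x_at probe sets of Mcm3 and Mcm7 were at 0.33 and 0.20.

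A test was possible only by treating both knockouts as replicates of 1 class and the 3 wild types as replicates of another, which the design does not make them. In that fit with limma over 11105 genes, 0 genes had a Benjamini-Hochberg adjusted p under 0.05, in either direction (0% of all genes), and the adjusted p of every member was 1. At an unadjusted p under 0.05 there were 168 genes, 1.07% of all genes higher and 0.441% lower in the knockouts, among them 8 members, all higher: Ube2c, Birc5, Top2a, Nusap1, Cdk1, Ccna2, Prc1 and Cdca8. For Ube2c the estimate was 0.77 ± 0.088 log2 units (SE, 2 knockout and 3 wild-type arrays), with both knockouts above every wild type, and the adjusted p by limma was 1. No member is therefore shown to differ between knockout and wild type beyond the spread between strains.

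Several members were read by more than 1 probe set, and these did not always give the same size. Of the 10 members with several probe sets over the floor, 8 had the same sign on all of them in the 4B line (not Mcm3 and Mcm7) and 7 in the 4D line, where Mcm7 had opposite signs. The largest disagreement was in Mcm4. Its probe set 1436708_x_at read 450 in C57, 300 in 4B(+/+), 204 in 4B(-/-), 287 in 4D(+/+) and 467 in 4D(-/-), while 1416214_at kept within 372 to 453. Probe sets with the suffix _x_at contain probes that can match other transcripts, and they represent Mcm5, Rrm2 and Cdc20 here, and below the floor Aurkb and Ccne1. In the 810 genes of the array with both an _x_at probe set and another one over the floor, the _x_at difference was above the other by a median of 0.10 log2 units in 4D(-/-) against 4D(+/+), and below it by a median of -0.04 in 4B(-/-) against 4B(+/+). Without _x_at probe sets, 22 members remained over the floor and the 4D median was 0.27 in place of 0.38. The part of the probe kind in the members' differences was otherwise not tested.

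**Figure D3:**
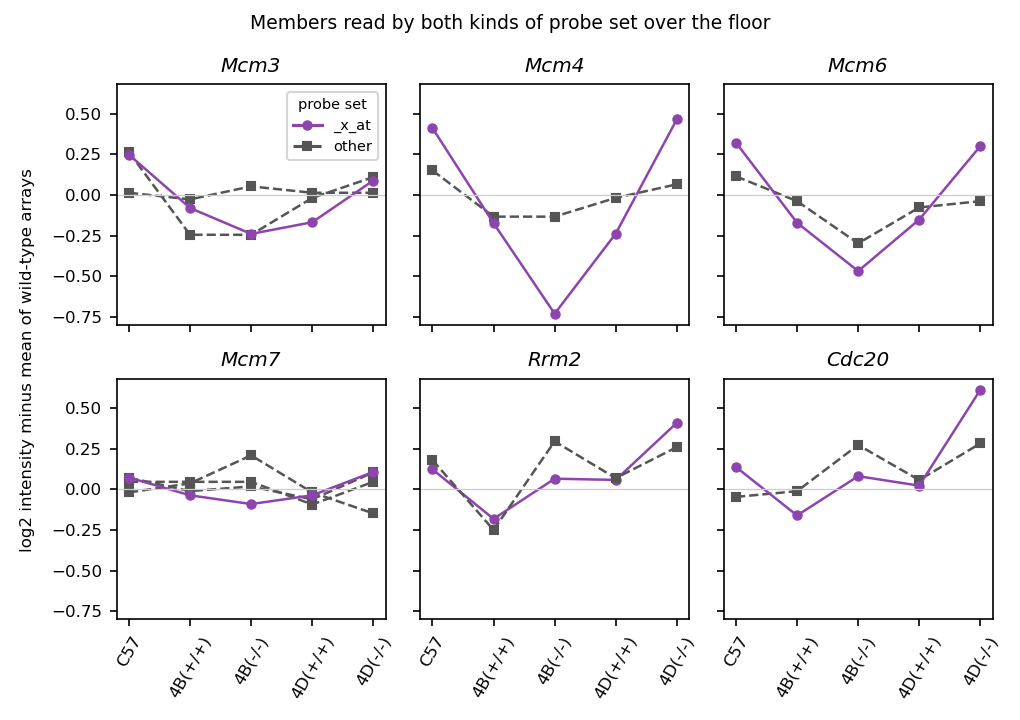
Log2 intensity minus the probe set's own mean over the 3 wild-type arrays, for members that have an _x_at probe set and another over the floor, by array; each line joins the values of 1 probe set. The _x_at probe sets of Mcm4 and Mcm6 spread widely over the arrays, with 4B(-/-) low, and the other probe sets of both genes stay closer to 0.

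The 17 members below the floor are dim and their values are less reliable. All 17 read higher in 4B(-/-) than in 4B(+/+), where 45.7% of all genes below the floor did, and 14 of 17 read higher in 4D(-/-) than in 4D(+/+), where 35.4% did. Above every wild type were 12 of 17 in 4B(-/-), against 31.6% of genes below the floor, and 13 of 17 in 4D(-/-), against 16.6%. Ccnb2 (cyclin B2) read 53.7, 49.7, 79.4, 62.4 and 76.9 in the order C57, 4B(+/+), 4B(-/-), 4D(+/+) and 4D(-/-). Cdca3, which promotes mitotic entry, read 52.4, 48.9, 72.4, 51.0 and 75.8, with both knockouts above the wild types. Cenpf, a kinetochore protein, read 72.0 in 4D(-/-) against 29.9 to 42.4 in the other arrays. The mitotic kinase Aurkb read 39.4 in 4D(-/-) against 21.7 to 25.9 elsewhere on 1424128_x_at, while its other probe set, 1451246_s_at, read 9.11 to 11.4 over all arrays. Aurka, Bub1b, Tk1, Cenpe, Kif11, Kif20a, Tpx2, Hmmr and Ttk were highest in 4D(-/-) too. Plk1, a kinase of mitotic entry, stayed between 47.1 and 51.4, Kif2c between 46.5 and 51.3, Ccne1 between 35.4 and 40.2, and the 4 Tyms probe sets read under 10 on every array.

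Genes of the same processes outside the 41 are given for comparison, and differences between the lists were not tested. Of all genes over the floor, 0.279% were at least 1.5-fold higher and 0.747% lower in the 4B line. In the 4D line 1.01% were higher and 4.07% lower. Of 50 further mitosis genes, 18 were over the floor: 2 were at least 1.5-fold higher in 4B(-/-) than in 4B(+/+), the kinetochore genes Spc24 at 1.54-fold and Spc25 at 1.53-fold, and 1 in 4D(-/-), the kinase Pbk at 1.59-fold. Their medians were 0.14 and 0.32, and 12 of the 18 were above all wild types in each knockout. Of all genes, 31.3% were above in 4B(-/-) and 20.8% in 4D(-/-). Spc25 read 52.8 to 69.9 in the wild types, against 85.1 in 4B(-/-) and 89.8 in 4D(-/-). It passed the floor through its knockout values, so the floor favoured including it in these counts. Of 34 further replication genes, 22 were over the floor, with medians of 0.07 and -0.04. Among them 0 were past 1.5-fold in the 4B line, and 1 was lower in 4D(-/-), Gmnn (geminin, which blocks relicensing of DNA), at 292, 262, 306, 360 and 235 in the same order of arrays. Above all wild types were 8 of these 22 in 4B(-/-), against 31.3% of all genes, and 4 in 4D(-/-), against 20.8%. Below all wild types were 0 in 4B(-/-), against 20.8% of all genes, and 8 in 4D(-/-), against 31.8%. The 7 cell cycle transcription factors over the floor had medians of 0.00 and 0.13, and the 7 G1 cyclins and kinases of 0.05 and 0.11, with 0 genes past 1.5-fold. Of 16 cell cycle brakes, 1 was past it: Cdkn1a (p21, a CDK inhibitor) read 731 in C57, 1918 in 4B(+/+), 2203 in 4B(-/-), 1145 in 4D(+/+) and 2143 in 4D(-/-). It was lowest in C57 and 1.87-fold higher in 4D(-/-) than in 4D(+/+).

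**Figure D4:**
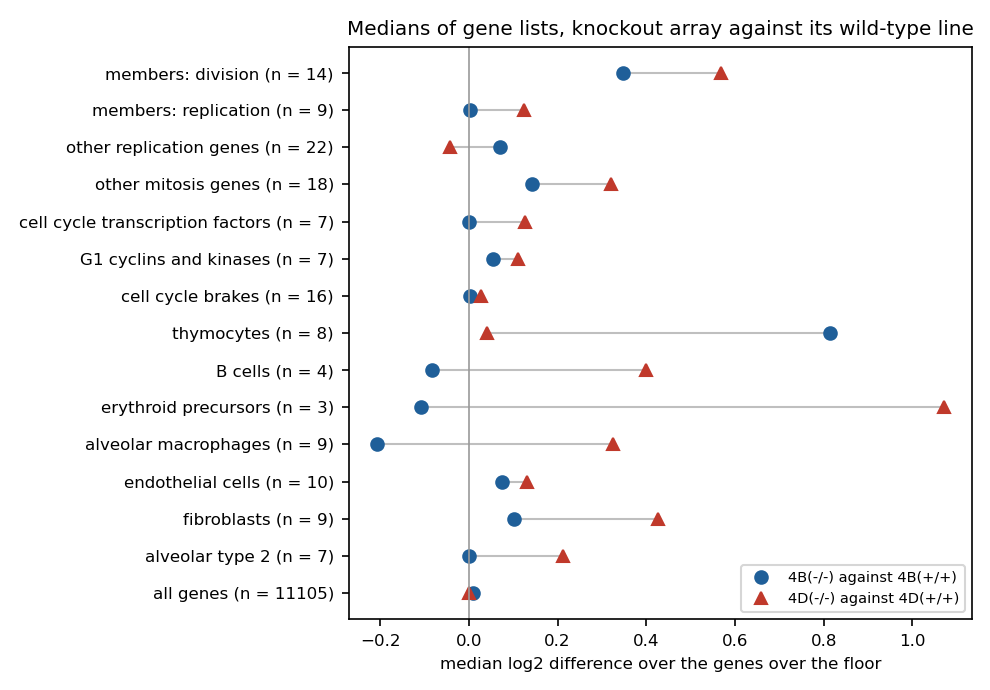
Median log2 difference of knockout minus matching wild type for the division members, the replication members, 5 further cell cycle lists, 7 cell type marker lists and all genes, in the 4B and the 4D line; the number of genes over the floor stands beside each list. Division members lie at 0.35 and 0.57, and the further mitosis genes at 0.14 and 0.32.

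Markers of other cell types are given beside the members. Of all genes over the floor, 0.279% were at least 1.5-fold higher and 0.747% lower in 4B(-/-) than in 4B(+/+). In 4D(-/-) against 4D(+/+), 1.01% were higher and 4.07% lower. Thymocyte and T-cell markers, 8 of 16 over the floor and 3 of the 14 measured reaching it on no array, were at least 1.5-fold higher in 4B(-/-) than in 4B(+/+) in 6 of 8, with a median of 0.81, and their summed intensity was 2233 there against 1076 to 1266 in the wild types. Dntt, the terminal transferase of immature lymphocytes, read 247 in 4B(-/-) against 39.4 to 75.7 in the wild types. Cd8a read 121 in 4B(-/-) against 51 to 59.2 on the other arrays. Dntt and Cd8a passed the floor through 4B(-/-), so the floor favoured counting them as higher there. In 4D(-/-) the thymocyte median was 0.04 and the sum was 1041, below all wild types. Erythroid markers were higher in 2 of 3 over the floor in 4D(-/-) (summed intensity 600 against 361 to 511), and 6 of the 9 measured reached it on no array. Of the 2, Hbb-b2 read 100 in 4D(-/-) against 47.8 to 68.2 on the other arrays. It passed the floor through 4D(-/-), so the floor favoured counting it as higher there. Alveolar macrophage markers were higher in 4D(-/-) in 3 of 9, with 1 lower (13474, within the wild-type range of 12556 to 14941). Fibroblast markers were higher in 2 of 9, Col1a1 and Fn1 (32068 against 25337 to 26687). Endothelial markers had medians of 0.08 and 0.13, with 0 of 10 past 1.5-fold, a count that so few genes would give at these shares too. The part of these cell types in the members' differences was not tested.

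Over the whole series, the arrays were alike in brightness, with median intensities of 45.4 to 46.6 and 43.7% to 44.0% of probe sets at 64 or more. Lung markers were bright on all arrays, with Sftpc at 24527 to 24896 and Scgb1a1 at 23282 to 25287. The ratio of 3′ to 5′ control probe sets, which reflects RNA integrity and labelling, was 1.62 to 1.88 for actin. For Gapdh it was 1.72 in C57, 1.37 in 4B(+/+), 1.57 in 4B(-/-), 1.31 in 4D(+/+) and 1.77 in 4D(-/-), so it was higher in each knockout than in its own wild type, and its part in the results was not tested. Skeletal muscle markers were at least 1.5-fold lower in both knockouts than in their wild types in 9 of 9. Of all genes over the floor, 0.747% were that much lower in the 4B line and 4.07% in the 4D line. The summed muscle intensity was 35492 in 4D(+/+) against 4518 in C57. On the Pde4b probe set 1422474_at the lowest value was 397, in 4B(-/-), against 461 to 490 elsewhere, and on the Pde4d probe set 1435280_at it was 386, in 4D(-/-), against 456 to 523. Another Pde4b probe set, 1422473_at, read 457 in 4B(-/-), within the 438 to 558 of the other arrays. The position of these probes relative to the deleted part was not given in the sources used here, so they do not check the genotypes.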

How the data were processed

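Lung RNA of 5 groups was hybridised to 1 Affymetrix array each, labelled with the 3′ IVT Express kit, per the labels' protocols. The deposited values are intensity on a linear scale that the authors made with RMA, per the submitters' processing notes; its version, settings and gene build were not given in the sources used here. RMA normally includes quantile normalisation between arrays. Of all probe sets, 59.7% hold the same value on at least 2 arrays, and of the member probe sets 55.7%.

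From these, log2 intensities were taken with Python 3.11.15, pandas 2.3.3 and numpy 2.4.6. Of 45101 probe sets, 34958 had 1 gene symbol in the platform annotation, 932 had several and 9211 none; only the first were named. A gene was its probe set with the highest mean, kept at a mean log2 over all arrays, knockouts included, of at least 6. It counted as higher or lower past 1.5-fold. Single arrays were compared by counts and medians without a test. The only fit used limma 3.58.1 in R 4.3.3 (lmFit, eBayes with trend, Benjamini-Hochberg over all 11105 genes), with strains taken as replicates. The scripts were tested on simulated data.

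The members and all gene lists were chosen with earlier results of these data known, as were the tests. The 5 further cell cycle lists and 17 marker lists are textbook choices. Values in every array are given for the 10 members over the floor with the largest absolute log2 difference in either knockout comparison and the 3 with the smallest; other members may be named, and of each other list up to 4 genes past 1.5-fold with the largest differences. Cdk1, Mcm3, Mcm6 and the dim members shown array by array were chosen after their values were seen. The alternatives were other floors, fold thresholds, probe set rules, scalings and references, and leaving out each array. The rule without _x_at probe sets was chosen after seeing the data. The number of arrays limits the precision.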

Additional observations from a re-analysis of the deposited data

Results flagged for a closer look

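In 4 cases the 2 knockouts lay on opposite sides of their own wild type, each by at least 0.32 log2 units, and these differences between the lines were not tested. The Mcm4 probe set 1436708_x_at was -0.55 log2 units in 4B(-/-) against 4B(+/+) and 0.70 in 4D(-/-) against 4D(+/+), while 1416214_at of the same gene was at 0.00 and 0.08. The thymocyte markers Dntt and Ccr9 were 1.70 and 1.27 in the 4B line, with -0.36 and -0.33 in the 4D line. The cartilage collagen Col2a1 was -0.86 in the 4B line and 1.49 in the 4D line.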

How the results depend on the processing

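Of the alternative values of the main results, 280 stayed close to the main value, 77 moved and 1 changed sign. Among the other values 136 stayed close and 42 moved. A count stayed close when within 1.5 times the main count, and a median counted as moved past 0.068 log2 units, the SD of the members' median over the 3 wild types. A main count of 0 that stayed 0 was also taken as close. Many main counts were 0, among them every count of members at least 1.5-fold lower, so the 280 says little about the other counts. The cause was not tested, except that a higher floor or another probe set rule leaves fewer members: 12 at a mean log2 of 7, 15 with the median over each gene's probe sets and 16 with plain _at probe sets, against 33 at 5 and 40 without a floor. The share of all genes was not taken for the member counts under the alternatives, so these are given without it.

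With a threshold of 0.32 log2 units, members higher numbered 8 in 4B(-/-) and 13 in 4D(-/-) against their wild types, 8 and 12 against C57 and 9 in 4D(-/-) against 4B(-/-), with 3 lower in 4B(-/-) against C57; 4B(+/+) had 2 lower and 4D(+/+) 1 higher and 1 lower than C57. With 2-fold all these counts of higher members were 0. With the mean of all 3 wild types, or of the 2 others, as the reference, 1 member was higher in 4B(-/-), with a median of 0.11 for the latter.

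With a floor of 7, 0 and 3 members were higher in 4B(-/-) and 4D(-/-) against their wild types (medians 0.076 and 0.18) and 0 and 2 against C57, where the 4B(-/-) median turned to -0.058 and the 4D(-/-) median was 0.051; that of 4B(+/+) against C57 was -0.22. Above all wild types were 3 of the 12 members left in 4B(-/-), 2 of them division members, and 7 of 12 in 4D(-/-), 3 of them division members. The division members left were Cks2, Cdc20, Mki67 and Top2a. At the main floor, 31.3% and 20.8% of all genes were above, and 3 of 12 is a share under that 31.3%. 4D(-/-) was highest in 7 members, 4B(-/-) highest in 2 and 4B(+/+) lowest in 5. The median of both knockouts against the wild types was 0.070. With a floor of 5, the medians against C57 were 0.10 and 0.28 and 4D(-/-) exceeded 4B(-/-) in 2 members with a median of 0.18; 20 members, 18 of them of division, were above all wild types in 4B(-/-), 1 was below in 4D(-/-), and 4B(-/-) was highest in 8. Without a floor these were 0.10 and 0.31, 3 members, 24 and 21 in 4B(-/-), 1 below in 4D(-/-) and 9; 29 members, 24 of division, were above in 4D(-/-), which was highest in 26, and 4B(+/+) was lowest in 18. With a floor on the highest array, 2 members were higher in 4D(-/-) than in 4B(-/-).

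With that median, 3 members were higher in 4D(-/-) against 4D(+/+) and 4 against C57 (median 0.080), 2 were lower in 4B(-/-) against C57, and 3 were higher in 4D(-/-) than in 4B(-/-) (median 0.014). Above the wild types were 7 division members in 4B(-/-), and 9 members, 7 of division, in 4D(-/-), which was highest in 5; 4B(+/+) was lowest in 6. With plain _at probe sets, 1 member was higher in 4B(-/-) and 4 in 4D(-/-) against their wild types (4D median 0.21), the medians of 4D(-/-) against C57 and 4B(-/-) were 0.21 and 0.18, 7 division members were above the wild types in 4B(-/-), 9 members in 4D(-/-), and 4D(-/-) was highest in 7. Without _x_at probe sets the 4D median was 0.27. Centring each array on its median left 1 member higher in 4B(-/-) than in C57.

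Leaving out 1 array at a time, the median of both knockouts against the wild types ranged from 0.13 without 4D(-/-) to 0.41 without 4B(-/-), and without C57, 1 member in place of 0 was below the remaining wild types in 4D(-/-). limma called 0 members at an adjusted p under 0.05 under each of its alternatives, also in the analysis paired by line, with the line as a block over the arrays other than C57, where 8 members had an unadjusted p under 0.05 and the members' median was 0.30. Dim probe sets limit what is seen: 27 of 49 further mitosis genes reached the floor on no array.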

Other observations

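Markers of tissues that lie next to the lung differed between these arrays. Skeletal muscle markers had medians of -0.98 and -2.46 log2 units in the 4B and 4D knockout comparisons, fat markers -0.21 and -2.14, and cartilage markers -0.52 and -0.28. Ucp1, the uncoupling protein of brown fat, read 176 in C57, 792 in 4B(+/+), 251 in 4B(-/-), 986 in 4D(+/+) and 92.2 in 4D(-/-). Fat markers summed to 1089 in 4D(-/-), below all wild types, which ranged from 1406 to 5390.

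Among the other cell types, B-cell markers had medians of -0.08 and 0.40, plasma cell markers -0.23 and 0.24, erythroid markers -0.11 and 1.07, and monocyte and interstitial macrophage markers -0.13 and 0.05. The erythroid medians rest on 3 genes, and the 1.07 is the value of Hbb-b2, which passed the floor through 4D(-/-). Alveolar macrophage markers were at -0.21 and 0.32, neutrophil markers at 0.10 and -1.05, and fibroblast markers at 0.10 and 0.43. Of the epithelial lists, alveolar type 2 markers had medians of 0.00 and 0.21, alveolar type 1 markers 0.06 and 0.22, club and ciliated markers -0.01 and 0.00, and basal and squamous markers -0.23 and -0.48. Mesothelial markers were at 0.16 and -0.11.

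The difference between _x_at and other probe sets of the same 810 genes was seen over all genes that have both kinds. In 4D(-/-) against 4B(-/-) the _x_at difference was the higher in 73.0% of these genes, with a median of 0.14 log2 units, and 8.38% of 1217 _x_at probe sets over the floor were at least 1.5-fold higher, against 2.70% of 16626 others. In 4B(-/-) against C57 it was the lower in 68.0%, with a median of -0.11.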
